A study of Mus musculus with 12 samples.

Results

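P2X receptors and their microglial partners were described in 3 mouse cell lines by the messenger RNA levels of 10 genes, named in advance as the 7 P2X genes (P2rx1 to P2rx7), the P2Y genes P2ry6 and P2ry13, and Entpd1. All 10 had probes on the array, among 25128 features, where a feature is a gene with a symbol or a transcript target without one. The rule is a list of gene names and holds no measured value, but the list was drawn up with earlier results of these data known. RNA came from 3 lines grown without treatment in the same serum-supplemented medium, with 4 separately cultured and separately extracted plates each: BV2, a microglial line immortalised with a retrovirus carrying oncogenes and kept here in a resting state, N18, a neuroblastoma line, and AtT20, a line from a pituitary corticotroph tumour. Each plate gave 1 single-colour array, and each line is 1 established line, so plates measure culture and technical spread within a line and not spread between lines of a kind.

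Extracellular ATP and other nucleotides reach cells through ionotropic and G protein-coupled receptors. P2X receptors are trimeric cation channels opened by ATP, whereas P2Y receptors couple nucleotides to G proteins, with P2ry6 preferring UDP and P2ry13 preferring ADP. In microglia the P2X7 channel links high ATP to inflammasome activation and release of interleukin-1 beta, P2X4 is associated with responses after nerve injury, P2Y6 with phagocytosis, and Entpd1 (CD39) is the surface enzyme that breaks ATP and ADP down to AMP. P2X3 is best known from sensory neurons.

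Promoter windows are shown for the members above the detection threshold in BV2 for which the RefSeq table held one, and they let P2rx7 be read beside its neighbour on chromosome 5, P2rx4. The windows run from 250 bases before to 50 after an annotated start, in GRCm38.p6, and the table held 8 windows for 6 of the 10 members. In the RefSeq table P2rx7 and P2rx4 had no protein-coding gene between them. Capitals mark GAGGAA, the core of a PU.1-type ETS motif, read on both strands (TTCCTC on the other). The letters were in 5 of the 8 member windows and in 28.3% of all 32851 windows.
P2rx7, upstream start, chr5:122643677-122643976, plus strand: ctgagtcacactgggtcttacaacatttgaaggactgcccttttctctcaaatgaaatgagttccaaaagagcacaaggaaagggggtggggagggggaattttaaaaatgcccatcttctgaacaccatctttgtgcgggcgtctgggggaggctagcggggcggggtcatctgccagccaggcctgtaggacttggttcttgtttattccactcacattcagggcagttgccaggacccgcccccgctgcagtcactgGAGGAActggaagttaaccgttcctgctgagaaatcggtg
P2rx7, downstream start, chr5:122650133-122650432, plus strand: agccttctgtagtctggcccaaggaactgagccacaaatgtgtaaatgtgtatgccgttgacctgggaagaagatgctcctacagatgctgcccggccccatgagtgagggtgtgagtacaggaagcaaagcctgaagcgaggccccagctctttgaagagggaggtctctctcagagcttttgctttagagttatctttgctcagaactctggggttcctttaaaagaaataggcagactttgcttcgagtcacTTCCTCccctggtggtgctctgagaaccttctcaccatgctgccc
P2rx4, chr5:122707294-122707593, plus strand: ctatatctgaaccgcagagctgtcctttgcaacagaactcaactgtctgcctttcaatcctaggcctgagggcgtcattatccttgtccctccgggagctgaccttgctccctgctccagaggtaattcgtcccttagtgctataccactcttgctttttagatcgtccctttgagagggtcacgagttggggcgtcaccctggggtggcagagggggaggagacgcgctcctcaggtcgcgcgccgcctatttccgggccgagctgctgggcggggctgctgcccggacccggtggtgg
Entpd1, upstream start, chr19:40612116-40612415, plus strand: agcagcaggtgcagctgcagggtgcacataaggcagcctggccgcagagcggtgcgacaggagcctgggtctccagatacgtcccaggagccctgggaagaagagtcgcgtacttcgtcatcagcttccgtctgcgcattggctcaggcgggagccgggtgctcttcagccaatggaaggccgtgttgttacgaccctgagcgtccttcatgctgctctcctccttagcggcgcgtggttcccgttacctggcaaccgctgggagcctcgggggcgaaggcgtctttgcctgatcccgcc
Entpd1, downstream start, chr19:40659520-40659819, plus strand: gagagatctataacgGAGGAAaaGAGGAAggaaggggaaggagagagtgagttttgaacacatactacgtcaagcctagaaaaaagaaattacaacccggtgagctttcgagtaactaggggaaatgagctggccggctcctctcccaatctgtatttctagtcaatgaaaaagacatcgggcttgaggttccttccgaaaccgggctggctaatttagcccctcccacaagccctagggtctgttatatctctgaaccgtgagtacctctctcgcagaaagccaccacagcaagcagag
Both P2rx7 windows held 1 match each, the downstream Entpd1 window held 2 that lie close together, and the P2rx4 window and the upstream Entpd1 window held none. Of the windows not shown, those of P2rx6 and P2ry13, members above the threshold in no line, held 1 match each. The P2rx1 window held none. CG dinucleotides numbered 18 in the P2rx4 window and 23 in the upstream Entpd1 window, against 8 and 4 in the P2rx7 windows and a median of 7 over all windows. A match is a description of letters in a window and was not related to binding here.

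A level is the log2 signal of a gene minus the mean of 10 seminal proteins, genes not expected in these lines, on the same plate, so that 0 is background. A gene was above the detection threshold in a line where its mean level over 4 plates exceeded 2 SD of the seminal proteins, which was 0.56 ± 0.15 (SD, n = 4) in BV2, 0.74 ± 0.10 in N18 and 0.37 ± 0.11 on the AtT20-labelled plates. Levels of different genes rest on different probes and were not set against each other. Differences between lines are log2 values after quantile normalization of the 12 arrays, tested with limma and adjusted by the Benjamini-Hochberg method over all 25128 features. They were also computed without normalization and relative to the seminal proteins, and these are called the 3 scalings.

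The labels of the lines were checked against marker genes. Of 9 microglial markers with probes, 6 were higher in BV2 than in N18 under all 3 scalings, beside 7.16% of all features. Among the 6 was Itgam (an integrin of myeloid cells) at 4.34 ± 0.42 against 0.80 ± 0.07. The microglial markers Aif1 and Cx3cr1 were not above the threshold in BV2, at 0.30 ± 0.18 and 0.40 ± 0.18. In N18, 8 of 10 neuronal and noradrenergic markers were higher than in BV2, beside 19% of all features. The 8 included the transcription factor Phox2a at 2.15 ± 0.16 against 0.20 ± 0.08 and Dbh, which makes noradrenaline, at 2.27 ± 0.25 against 1.24 ± 0.21. The other 2 passed after quantile normalization as higher in BV2, beside 21.9% of all features, and neither did under all 3 scalings. They were Th, the first enzyme of catecholamine synthesis, at 0.99 ± 0.13 in N18 and 1.20 ± 0.24 in BV2, and Nefl, a neurofilament subunit. Nefl was under both thresholds, at -0.09 ± 0.08 in N18 and 0.25 ± 0.06 in BV2. None of 6 corticotroph markers was above the threshold on the AtT20-labelled plates, beside 35% of all features. The hormone precursor Pomc stood at 0.29 ± 0.26, the corticotroph factor Tbx19 at 0.02 ± 0.06 and the processing enzyme Pcsk1 at 0.14 ± 0.05, and the 6 means ran from -0.14 to 0.29. Of the same 6 markers, 2 were above the threshold in BV2 (Pomc at 0.67 ± 0.12 and Tbx19 at 1.43 ± 0.16) and 3 in N18 (Tbx19 at 1.46 ± 0.07, Chga at 3.14 ± 0.11 and Crhr1 at 3.16 ± 0.16). The shares of all features above the threshold were 53.3% in BV2 and 55.4% in N18. Of the 10 neuronal and noradrenergic markers, 5 were above the threshold on the AtT20-labelled plates, beside 35% of all features. Among them was Nefl at 4.46 ± 0.48. The same arrays had a narrower range, with an interquartile range of the deposited log2 values of 0.38 to 0.78, against 1.28 to 1.73 for BV2 and 1.91 to 2.21 for N18. Comparisons with these plates depended on the scaling: the median difference of all features between BV2 and the AtT20-labelled plates was -0.23 after quantile normalization, -1.08 without normalization and 0.28 relative to the seminal proteins, and that between N18 and these plates was -0.25, -0.85 and 0.54. Between BV2 and N18 it was 0.06, -0.15 and -0.18. The part of the narrow range in any result with these plates was not tested. The slide of each array is not given in the labels, so its part was not tested.

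Of the 10 members, 4 were above the threshold in BV2 (P2rx4, P2rx7, P2ry6 and Entpd1), 4 in N18 (P2rx3, P2rx4, P2rx7 and P2ry6) and 3 on the AtT20-labelled plates (P2rx1, P2rx4 and P2ry6). Over all features, 53.3% were above the threshold in BV2, 55.4% in N18 and 35% on the AtT20-labelled plates. P2rx2, P2rx5, P2rx6 and P2ry13 were above it in no line.

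**Figure D1:**
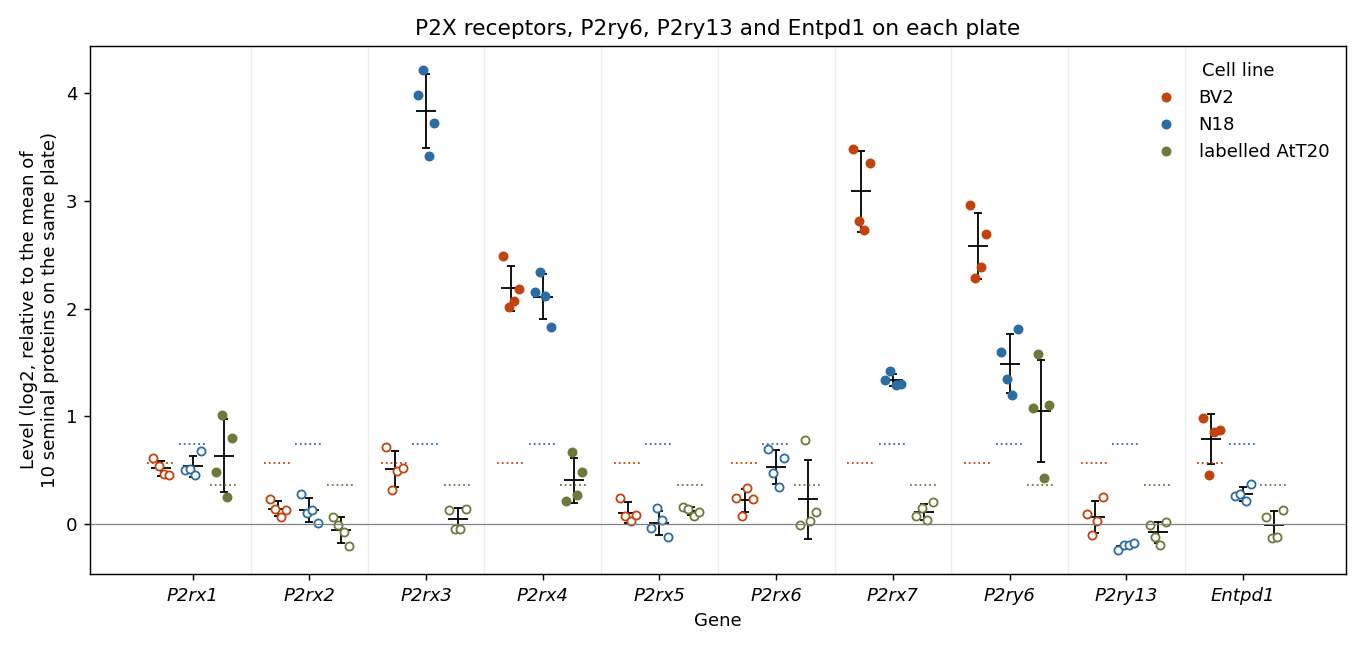
Level of each member on each plate (points, log2 relative to the mean of 10 seminal proteins), with mean ± SD over 4 plates (black) and each line's detection threshold (dotted). Filled points mark a gene above the threshold in that line. P2rx3 stands high in N18 alone, P2rx7 and P2ry6 are highest in BV2, and the points of P2rx4 in BV2 and N18 overlap.

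Between BV2 and N18, 4 members passed the test as higher in BV2 (P2rx4, P2rx7, P2ry6 and Entpd1) and 1 as higher in N18 (P2rx3), whereas over all features 21.9% were higher in BV2 and 19% were higher in N18. P2rx7, P2ry6 and Entpd1 passed in the same direction under all 3 scalings, against 7.16% of features for that direction, and so did P2rx3 in the other, against 18.7%. The median difference of the 10 members was 0.21, beside 0.06 for all features. P2rx1, P2rx2, P2rx5, P2rx6 and P2ry13 did not pass, with differences between -0.07 and 0.25 on the log2 scale. Counted together, the 39 probes of the members gave 16 higher in BV2, 3 higher in N18 and 20 that did not pass. Of all 72000 probes, 13.2% and 14.5% passed in the 2 directions. P2rx7 held 12 of the 39 probes and gave 9 of the 16, and P2rx3 gave all 3 higher in N18. Probes of a gene are not replicates, so the total does not count members.

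**Figure D2:**
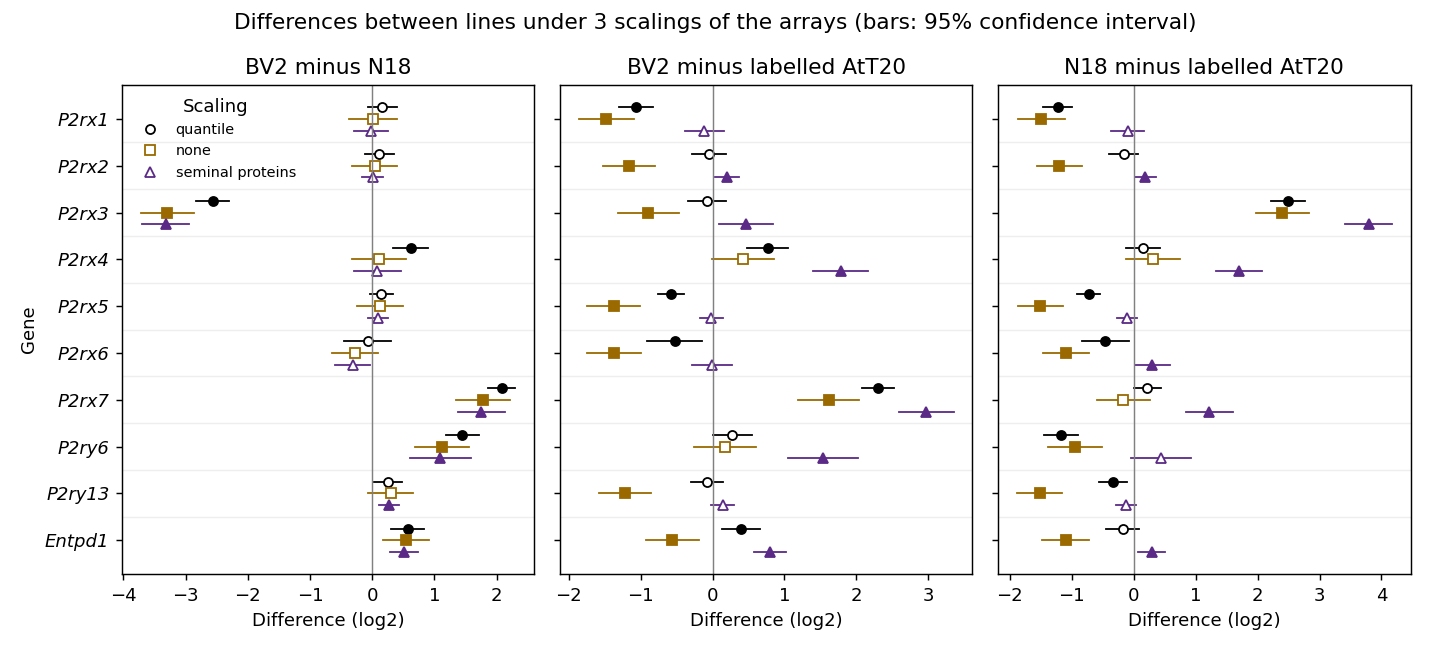
Difference of each member between lines on the log2 scale with its 95% confidence interval, under 3 scalings of the arrays, filled where the adjusted p was under 0.05. For BV2 minus N18 the scalings lie close together except for P2rx4 and P2rx3, whereas in the comparisons with the AtT20-labelled plates they spread over 1 log2 unit or more for most members.

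P2rx7 encodes the ATP-gated channel that signals to the inflammasome under high ATP. Its level was 3.48, 2.81, 2.73 and 3.35 across the 4 BV2 plates, 1.33, 1.42, 1.30 and 1.30 across the N18 plates and 0.07, 0.15, 0.04 and 0.20 on the AtT20-labelled plates. The 3 lines did not overlap on this scale. P2rx7 was 2.08 ± 0.10 (SE) log2 units higher in BV2 than in N18 (limma, adjusted p = 7.48e-11), with 1.78 without normalization and 1.75 relative to the seminal proteins. Against the AtT20-labelled plates, where P2rx7 was not above the threshold, BV2 was at least 2.5-fold higher, the smallest bound of the 3 scalings, with the fitted difference at 2.31 ± 0.10 (limma, adjusted p = 1.02e-11). N18 was above the threshold at 1.34 ± 0.06, but its difference from the AtT20-labelled plates was 0.22 ± 0.10 (limma, adjusted p = 0.0616), -0.17 without normalization (adjusted p = 0.473) and 1.22 relative to the seminal proteins (adjusted p = 3.6e-06). The first of these was 0.27 without AtT20-labelled plate 4 (adjusted p = 0.0271).

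P2rx7 is the one member with several targets on the array, 4 transcript targets of 3 probes each, and their probes are only partly separate. On the BV2 plates the targets stood at 3.09 ± 0.43 (NM_001038839), 4.13 ± 0.36 (NM_001038845), 1.62 ± 0.27 (NM_001038887) and 3.53 ± 0.49 (NM_011027), and each was above the threshold. In N18 they stood at 1.26 ± 0.13, 2.45 ± 0.18, 0.58 ± 0.03 and 1.06 ± 0.07 in the same order, and NM_001038887 was not above the threshold. Each of the 4 was higher in BV2 than in N18, by 2.17, 2.36, 1.13 and 2.68 log2 units (limma, largest adjusted p = 1.19e-06). None was above the threshold on the AtT20-labelled plates, where the range was -0.14 to 0.34. Against those plates NM_001038887 alone gave 0.25 for BV2 (limma, adjusted p = 0.0746) and -0.88 for N18, whereas the other targets gave 2.55 to 3.35 for BV2 and 0.38 to 0.71 for N18.

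Within the 12 P2rx7 probes, 10 were above the threshold in BV2, 7 in N18 and 2 on the AtT20-labelled plates, and 9 were higher in BV2 than in N18. The second probe of NM_001038845 gave 5.48 ± 0.37 in BV2, 3.68 ± 0.22 in N18 and 0.12 ± 0.17 on the AtT20-labelled plates. The third probe of the same target and the second of NM_001038887 were at background in every line, at -0.05 ± 0.09 and -0.23 ± 0.14 in BV2. The third probe of NM_001038887 was at 0.86 ± 0.19 in BV2 and 0.45 ± 0.12 in N18 and did not pass the probe test (limma, adjusted p = 0.0545). The first probes of NM_001038845 and NM_001038887 tracked each other, with a largest difference of 0.28 on any of the 12 arrays, so these 2 targets are not separate evidence there.

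**Figure D3:**
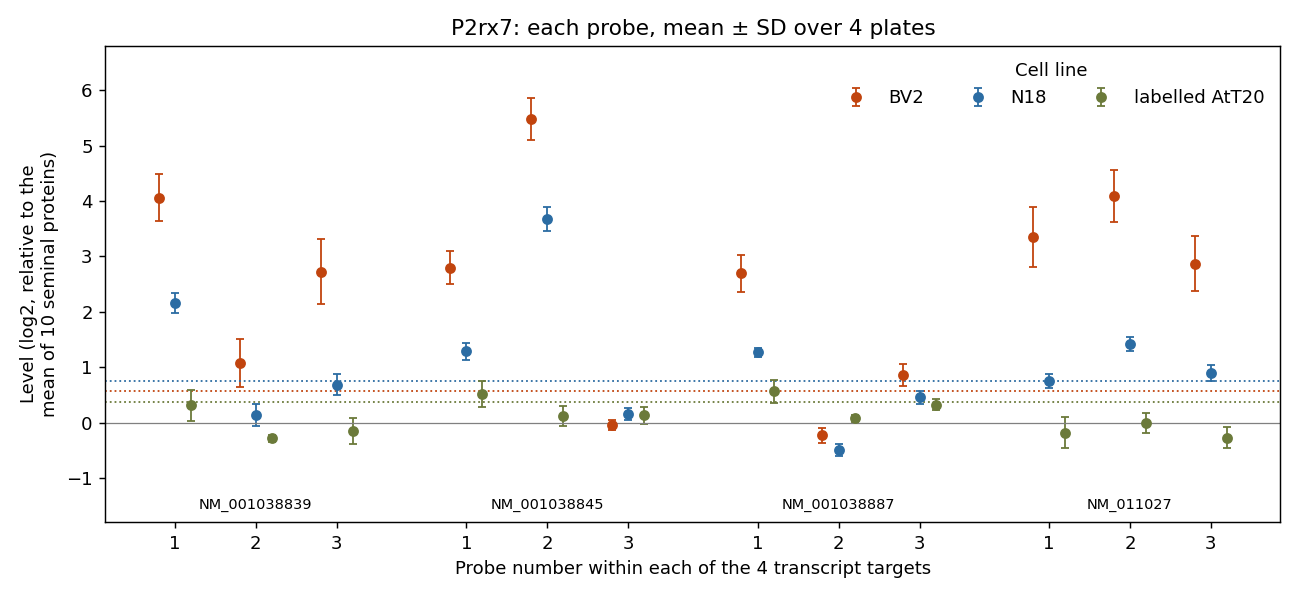
Level of each of the 12 P2rx7 probes (mean ± SD over 4 plates, log2 relative to the mean of 10 seminal proteins), grouped by the transcript each target was designed to, with the detection thresholds dotted in the colour of each line. In BV2 10 of 12 probes lie above the threshold, and 1 probe each of NM_001038845 and NM_001038887 lies at background in every line.

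P2rx4, the neighbour of P2rx7, encodes a channel found on the surface and in lysosomes of many cell types. Its level was 2.49, 2.02, 2.07 and 2.18 across the BV2 plates, 2.15, 2.34, 2.12 and 1.83 across the N18 plates and 0.21, 0.67, 0.27 and 0.48 on the AtT20-labelled plates. On this scale the BV2 and N18 plates overlapped and lay above all AtT20-labelled plates. After quantile normalization the BV2 plates lay above the N18 plates, and the N18 plates overlapped with those labelled AtT20. All 3 probes were above the threshold in BV2 and in N18. P2rx4 was 0.62 ± 0.13 (SE) higher in BV2 than in N18 after quantile normalization (limma, adjusted p = 0.0013), but 0.11 without normalization (adjusted p = 0.752) and 0.08 relative to the seminal proteins (adjusted p = 0.735, 95% confidence interval -0.30 to 0.46), so no order of BV2 and N18 was established. Of its 3 probes, the second passed the test alone, at 0.84 higher in BV2. On the AtT20-labelled plates the mean of 0.41 ± 0.21 was just over the threshold through 1 of 3 probes, at 0.95 ± 0.34, and without plate 2 it was 0.32, below the threshold. BV2 was 0.77 ± 0.13 higher than these plates (limma, adjusted p = 7.18e-05), with 0.42 without normalization (adjusted p = 0.0653) and 1.78 relative to the seminal proteins. For N18 minus these plates the difference was 0.15 ± 0.13 (limma, adjusted p = 0.316). It was 0.31 without normalization (adjusted p = 0.181) and 1.70 relative to the seminal proteins (adjusted p = 3.18e-08).

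P2rx3, the channel of nociceptive sensory neurons, had a level of 3.98, 4.22, 3.41 and 3.72 across the N18 plates, 0.72, 0.32, 0.49 and 0.52 across the BV2 plates and 0.13, -0.05, -0.05 and 0.14 on the AtT20-labelled plates. Every N18 plate lay above every plate of the other lines. N18 was at least 5.7-fold higher than BV2, where P2rx3 was not above the threshold, and the fitted difference of BV2 minus N18 was -2.56 ± 0.13 (SE; limma, adjusted p = 6.83e-11). The other scalings gave -3.29 and -3.32. Against the AtT20-labelled plates N18 was at least 3.4-fold higher, with a fitted difference of 2.49 ± 0.13 (limma, adjusted p = 4.09e-11) and 2.399 and 3.79 under the other scalings. The 3 probes stood at 3.95 ± 0.51, 4.57 ± 0.31 and 1.73 ± 0.19 in N18 and each was higher there than in BV2. In BV2 the mean was 0.51 ± 0.16 and 1 of the 3 probes, the second, was above the threshold at 0.80 ± 0.30. Without BV2 plate 3 the lower threshold put P2rx3 above it at 0.52, beside P2rx1 at 0.54.

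P2rx1, a channel of platelets and smooth muscle, was at 0.61, 0.54, 0.46 and 0.46 across the BV2 plates, 0.50, 0.51, 0.45 and 0.67 across the N18 plates and 0.48, 1.01, 0.25 and 0.79 on the AtT20-labelled plates. The plates of the 3 lines overlapped on this scale. Its mean on the AtT20-labelled plates, 0.63 ± 0.34, was above the lower threshold there, while 0.52 ± 0.07 in BV2 and 0.54 ± 0.10 in N18 were not above theirs. The second of 3 probes carried the level in every line, at 1.03 ± 0.13 in BV2, 0.76 ± 0.30 in N18 and 1.34 ± 0.55 on the AtT20-labelled plates. After quantile normalization P2rx1 was lower by a log2 difference of -1.06 ± 0.11 in BV2 and -1.23 ± 0.11 in N18 than on the AtT20-labelled plates (limma, adjusted p = 2.17e-07 and 3.43e-08), but relative to the seminal proteins the differences were -0.12 and -0.10 (adjusted p = 0.435 and 0.497).

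The remaining P2X genes were above the threshold in no line. P2rx2, which encodes a channel that also assembles with P2X3, had mean levels of 0.14 ± 0.07 in BV2, 0.13 ± 0.11 in N18 and -0.06 ± 0.12 on the AtT20-labelled plates. P2rx5 had 0.11 ± 0.10, 0.01 ± 0.11 and 0.12 ± 0.04 in the same order, and none of the 3 probes of either gene was above the threshold in any line. P2rx6, whose product forms few channels by itself, had 0.22 ± 0.11, 0.53 ± 0.16 and 0.23 ± 0.37, with the third probe alone above the threshold in BV2, at 0.74 ± 0.27, and in N18, at 1.28 ± 0.28. None of these 3 genes passed the test between BV2 and N18, with 95% confidence intervals of BV2 minus N18 of -0.12 to 0.35 for P2rx2, -0.04 to 0.33 for P2rx5 and -0.45 to 0.31 for P2rx6.

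Of the 2 P2Y members, P2ry6 was above the threshold in all 3 lines and P2ry13 in none. P2ry6, the UDP receptor, was at 2.96, 2.29, 2.39 and 2.70 across the BV2 plates, 1.60, 1.34, 1.20 and 1.82 across the N18 plates and 1.08, 1.58, 0.43 and 1.10 on the AtT20-labelled plates. On this scale the BV2 plates lay above all other plates, and the N18 plates overlapped with those labelled AtT20. P2ry6 was 1.45 ± 0.13 (SE) higher in BV2 than in N18 (limma, adjusted p = 9.09e-08), with 1.12 and 1.09 under the other scalings, and each of its 3 probes was higher in BV2, by 1.59, 1.40 and 1.50. In N18 1 of the 3 probes, the second, was above the threshold at 2.49 ± 0.45, and when probes were summarised by their median the level of P2ry6 in N18 was 0.50, below the threshold. Against the AtT20-labelled plates no order was established: BV2 was 0.28 ± 0.13 higher (limma, adjusted p = 0.0598) but relative to the seminal proteins 1.53 higher (adjusted p = 8.26e-06). The first of these passed without AtT20-labelled plate 2 or 4 (adjusted p = 0.041 and 0.0465). The difference of N18 minus these plates was -1.17 ± 0.13 (limma, adjusted p = 3.49e-07) but 0.44 relative to the seminal proteins (adjusted p = 0.0926).

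P2ry13, an ADP receptor known from microglia, was at 0.09, -0.10, 0.03 and 0.25 across the BV2 plates, -0.24, -0.19, -0.20 and -0.18 across the N18 plates and -0.01, -0.12, -0.19 and 0.01 on the AtT20-labelled plates. No probe was above the threshold in any line. The BV2 plates lay above the N18 plates although both were at background, with a difference of 0.25 ± 0.10 (limma, adjusted p = 0.0641) and 0.27 relative to the seminal proteins (adjusted p = 0.00673). The fit with quantile normalization passed the threshold without BV2 plate 2 (0.30, adjusted p = 0.0466) and without AtT20-labelled plate 1, 3 or 4 (adjusted p = 0.0488, 0.0154 and 0.039). No fold is given for a gene at background in both lines.

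Entpd1 was at 0.98, 0.45, 0.86 and 0.87 across the BV2 plates, 0.26, 0.28, 0.21 and 0.37 across the N18 plates and 0.07, -0.12, -0.12 and 0.13 on the AtT20-labelled plates. Every BV2 plate lay above every plate of the other lines on this scale, plate 2 by the least. BV2 was 0.57 ± 0.12 (SE) higher than N18 (limma, adjusted p = 0.00147), with 0.54 and 0.51 under the other scalings, and 2 of 3 probes passed, at 0.71 and 0.67. The mean of 0.79 ± 0.23 in BV2 was close to the threshold of 0.56, and it was below a threshold of 3 SD (0.85) and below one from olfactory receptor genes, where the level was 0.54. Against the AtT20-labelled plates the direction flipped with the scaling, from 0.39 ± 0.12 (adjusted p = 0.00946) and 0.80 relative to the seminal proteins (adjusted p = 1.37e-06) to -0.56 without normalization (adjusted p = 0.00407).

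In the comparisons with the AtT20-labelled plates, 3 members passed as higher in BV2 and 3 as lower, where 26.6% of all features were higher in BV2 and 47% were higher on those plates. For N18, 1 member passed as higher and 5 as lower, where the shares of all features were 27.8% and 48.6%. Under all 3 scalings the member count was 1 in BV2 (P2rx7, 11.7% of features), 1 in N18 (P2rx3, 18.7%) and 0 for genes higher on the AtT20-labelled plates, where 17.2% of features passed against BV2 and 16% against N18. For that count of 0, limma with quantile normalization alone gave 3 members against BV2 (P2rx1, P2rx5 and P2rx6) and 5 against N18 (P2rx1, P2rx5, P2rx6, P2ry6 and P2ry13). Against N18 the call of P2rx6, at -0.46 ± 0.18, was lost without N18 plate 2 or 3 (adjusted p = 0.0612 and 0.0681) and without AtT20-labelled plate 2 (-0.21, adjusted p = 0.0758), and P2rx2 passed without AtT20-labelled plate 4 (-0.28, adjusted p = 0.0111).

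For each member above the threshold in exactly 1 line, the genes with the most similar pattern over the 12 arrays were sought by Pearson's r among 17276 others. P2rx3 was most like Hpca (r = 0.994), Akap12 (0.993) and Wasl (0.992), and 377 genes had r over 0.95. P2rx1 was most like Irx2 (0.995), Ttyh1 (0.994) and Bmp5 (0.994), and 1423 genes had r over 0.95. Entpd1 was most like Olfr1449 (0.981), Mcpt2 (0.939) and Mob3b (0.938), and 1 gene had r over 0.95. The arrays fall into 3 lines, so these values describe a shared difference between lines after quantile normalization, the one scaling used for them. For P2rx1 that difference depended on the scaling. Relative to the seminal proteins it was -0.12 for BV2 and -0.10 for N18 against the AtT20-labelled plates (limma, adjusted p = 0.435 and 0.497).

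Other genes of purinergic signalling were taken by list. Of the 5 other P2Y genes with probes, 1 passed the test between BV2 and N18 as higher in BV2, beside 21.9% of all features. P2ry2, a receptor for ATP and UTP, was 0.38 ± 0.11 higher in BV2 (limma, adjusted p = 0.0123). The difference was 0.27 without normalization (adjusted p = 0.276) and 0.25 relative to the seminal proteins (adjusted p = 0.0593). At 0.73 ± 0.20 P2ry2 was the only one of the 5 above the threshold, in BV2 alone and through 1 of 3 probes. P2ry12, the ADP receptor that marks resting microglia in brain, was at 0.32 ± 0.25 in BV2, -0.18 ± 0.14 in N18 and -0.15 ± 0.21 on the AtT20-labelled plates. P2ry14, a receptor for UDP-glucose, was at 0.54 ± 0.05 in BV2 and 0.70 ± 0.08 in N18, just under both thresholds. P2ry1, another ADP receptor, and P2ry4, a UTP receptor, had mean levels of -0.18 and -0.28 in BV2.

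All 4 adenosine receptors, which sense the product of ATP breakdown, passed between BV2 and N18, 2 as higher in BV2 and 2 as higher in N18, beside 21.9% and 19% of all features. Adora2a, coupled to cyclic AMP, was at 2.84 ± 0.25 in N18, 0.80 ± 0.12 in BV2 and 0.49 ± 0.33 on the AtT20-labelled plates, with a BV2 minus N18 difference of -1.24 ± 0.14 (limma, adjusted p = 1.68e-06). Adora1, coupled to inhibition of cyclic AMP, was also higher in N18, at 1.13 ± 0.15 against 0.43 ± 0.05. Adora2b was at 0.39 ± 0.15 in BV2 and -0.21 ± 0.09 in N18, under both thresholds, and Adora3 at 0.66 ± 0.23 and 0.38 ± 0.15. Adora3 did not pass under the other scalings (0.28 relative to the seminal proteins, adjusted p = 0.0914).

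Of 11 other ectonucleotidases and related enzymes with probes, 2 were higher in BV2 and 5 in N18, beside 21.9% and 19% of all features. Enpp3, which cleaves nucleotides outside the cell, was at 4.21 ± 0.22 in N18 and 0.06 ± 0.06 in BV2, at least 7.5-fold higher in N18. Enpp1, which makes pyrophosphate from ATP, was at 3.38 ± 0.30 in N18 and 0.90 ± 0.07 in BV2, and Alpl, a phosphatase that can complete the breakdown to adenosine, at 5.03 ± 0.10 and 3.32 ± 0.33. The 5 higher in N18 passed under all 3 scalings, as did 18.7% of all features in that direction, and the 2 higher in BV2 did not (7.16% of all features). Nt5e (CD73), the enzyme that follows Entpd1 in making adenosine, was at 0.56 ± 0.08 in BV2 and 0.40 ± 0.16 in N18, under both thresholds.

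Among 6 genes of adenosine handling, 3 were higher in BV2 and 2 in N18, beside 21.9% and 19% of all features. The nucleoside transporter Slc29a1 was at 3.96 ± 0.27 in N18 and 2.30 ± 0.34 in BV2, and its relative Slc29a2 at 0.28 ± 0.09 and 0.91 ± 0.07. Adenosine kinase (Adk) was 0.37 ± 0.10 higher in BV2 after quantile normalization (limma, adjusted p = 0.00803) and -0.03 relative to the seminal proteins (adjusted p = 0.871). Of 6 genes of nucleotide release, 1 passed as higher in BV2 (21.9% of all features), the vesicular nucleotide transporter Slc17a9, with a difference of 0.50 ± 0.13 (limma, adjusted p = 0.00505), and it did not pass relative to the seminal proteins (0.14, adjusted p = 0.566).

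Of 7 genes that act downstream of P2X7, 6 were higher in BV2 than in N18 and none passed as lower, beside 21.9% and 19% of all features, and the median difference was 1.51 beside 0.06 for all features. Casp1, the inflammasome protease, was at 2.50, 1.73, 1.60 and 2.51 across the BV2 plates and between -0.70 and -0.44 across the N18 plates, at least 2.5-fold higher in BV2. Il1b, the cytokine it processes, was at 2.62, 1.91, 2.14 and 2.64 across the BV2 plates and between -0.32 and -0.09 in N18, at least 3.0-fold higher. The sensor Nlrp3 was at 2.91 ± 0.29 in BV2 and 0.92 ± 0.09 in N18, a difference of 2.12 ± 0.12 (limma, adjusted p = 4.48e-10). Of the 7 genes, 6 were above the threshold in BV2, 3 in N18 and 0 on the AtT20-labelled plates, beside 53.3%, 55.4% and 35% of all features. Pycard was above it in no line, at 0.18 ± 0.10 in BV2. Nlrp3, Casp1, Il1b and Il18 passed between BV2 and N18 under all 3 scalings, beside 7.16% of all features, and Nek7, Pycard and Gsdmd did not.

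**Figure D4:**
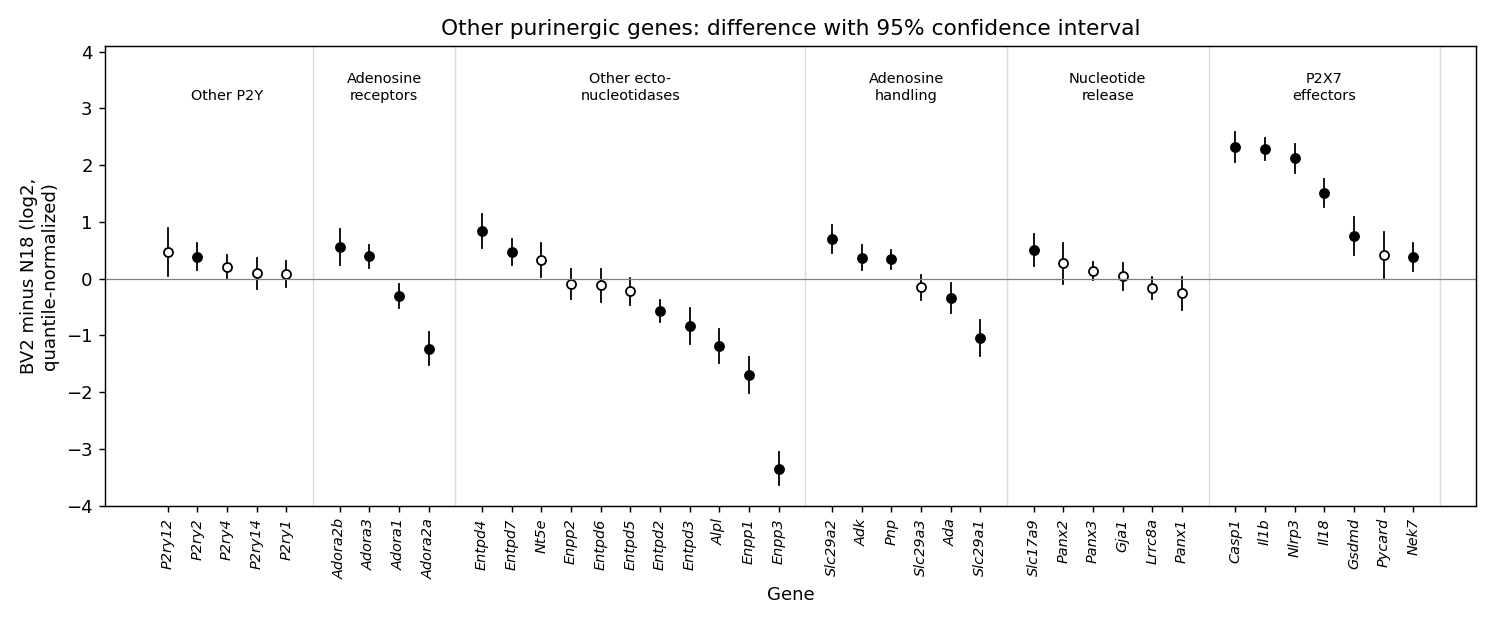
Difference of BV2 minus N18 for the other purinergic genes, by list, with its 95% confidence interval on the log2 scale after quantile normalization (filled where the adjusted p was under 0.05). The P2Y and nucleotide release genes lie between -0.26 and 0.50, with P2ry2 and Slc17a9 filled, Enpp3 and Enpp1 lie farthest to the N18 side, and Casp1, Il1b and Nlrp3 farthest to the BV2 side.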

How the data were processed

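Gene expression was measured in BV2, N18 and AtT20 cells on 12 mouse single-colour NimbleGen arrays, 4 plates per line. The deposited values are log2 Cy3 intensities of 72000 probes, mostly 3 to a transcript target. Neither background subtraction nor normalization by the authors is given in the sources used here for these values, and none was assumed. Array number limits the precision. RefSeq symbols matched 17780 of 25631 targets, and targets without a symbol stayed separate, which left 25128 features.

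The signal of a target was its probes averaged as linear intensities and then taken as log2, and targets of a gene were averaged. The detection rule followed the study's methods (10 seminal proteins, 2 SD). Differences between lines were fitted over all 12 arrays with limma 3.58.1 in R 4.3.3 after quantile normalization of the probes, with an intensity trend, Benjamini-Hochberg adjustment over all features and a threshold of 0.05. Other steps used Python 3.11.15. Both procedures were tested on simulated data. At-least folds set the mean of the brighter line against the other line's seminal mean plus 2 SD.

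All 10 members are named, as are every other P2Y and adenosine receptor gene, the 3 largest BV2 against N18 differences past the test in each other list, the first 3 markers with probes, and the 3 most similar genes. Nt5e, Il18, Pycard, Nek7, Gsdmd, Chga, Crhr1, Nefl, Trem2 and members named for counts of 5 or fewer were chosen after their values were seen. Members and lists were chosen with earlier results of these data known. The plates were said to be separate cultures of 1 line, so p-values measure the spread between plates. Alternatives covered the scaling, probe summary, controls, background correction (normexp, offset 50), filter, arrays fitted, array weights, the replicate block and leaving out each plate. Each P2rx7 target alone was an alternative chosen after seeing the data.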

Additional observations from a re-analysis of the deposited data

Results flagged for a closer look

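Among 30 sets of 4 plates (10 members in 3 lines), 1 held a plate far from the others: P2rx6 was at 0.78 on AtT20-labelled plate 2, against -0.01, 0.03 and 0.11 on the other plates. Its second probe varied most there (0.21 ± 0.84, SD, n = 4). Chance flags about 1 in 20 such sets.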

How the results depend on the processing

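P2rx3, P2rx7 and P2ry6 kept their direction and stayed past the test between BV2 and N18 under every alternative run, and so did Entpd1. The detection of P2rx1 and P2rx4 on the AtT20-labelled plates, of P2rx7 and P2ry6 in N18 and of Entpd1 in BV2 did not hold under every alternative. In BV2, P2rx1 and P2rx3 rose above the threshold without BV2 plate 3. They also did without the highest seminal protein, at 0.57 and 0.56 against a threshold of 0.49. Detection is limited by the spread of the seminal proteins, and genes within it have no order. The cause of the changes below was not tested.

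Members above the threshold on the AtT20-labelled plates numbered 1 with the median of the probes, with olfactory receptor controls or with at least 2 probes required (P2ry6 in the last). Leaving out 1 plate gave 4 to 6 in BV2 (6 without plate 3), 4 in N18 and 2 to 3 on the AtT20-labelled plates (2 without plate 2). Members higher in BV2 than N18 numbered 7 when only the 8 arrays of the pair were fitted and with array weights (P2rx1, P2rx5 and P2ry13 were added), and features past the test 15509 and 16014, against 10270 in the fit as reported. Leaving out 1 plate gave 4 to 5 members higher in BV2, 1 higher in N18, and 8783 to 11950 features. Members higher in BV2 than on the AtT20-labelled plates numbered 1 without normalization and 6 relative to the seminal proteins (3 to 4 leaving out 1 plate), and members lower 7, 0 and, among features above the threshold, 1 (3 leaving out 1 plate). Members higher in N18 than on these plates numbered 6 relative to the seminal proteins and 2 from averaged log2 probes, normexp or the highest target (1 to 2 leaving out 1 plate, 2 without AtT20 plate 4), and members lower 0 relative to the seminal proteins and 2 among features above the threshold (4 to 6 leaving out 1 plate). Features past the test ranged from 17535 to 19030 for BV2 and from 18350 to 19662 for N18 against the AtT20-labelled plates.

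With olfactory receptor controls levels turned negative in BV2 for P2rx2 (-0.11), P2rx5 (-0.14), P2rx6 (-0.028) and P2ry13 (-0.18), and in N18 for P2rx2 (-0.16), P2rx5 (-0.28) and Entpd1 (-0.0097). With the median of the probes they did in N18 for P2rx2 (-0.10), P2rx5 (-0.062) and P2rx6 (-0.021) and on the AtT20-labelled plates for P2rx3 (-0.012). P2rx5 in N18 was -0.039 to 0.049 leaving out 1 plate (negative without plate 2 or 3), and Entpd1 on the AtT20-labelled plates was 0.027 without Svs5, the highest seminal protein, and -0.059 to 0.027 leaving out 1 plate (positive without plate 2 or 3). Differences of BV2 minus N18 changed sign for P2rx1 (-0.018 relative to the seminal proteins) and P2rx6 (0.15 with the median of the probes). For BV2 minus AtT20 they did for P2rx2 (0.20 relative to the seminal proteins, -0.16 to 0.041 leaving out 1 plate, positive without AtT20 plate 1 or 2), P2rx3 (0.47 relative to the seminal proteins, 0.037 from the mean of log2 probes, 0.29 with the median, 0.022 with array weights), P2ry13 (0.14 relative to the seminal proteins) and Entpd1 (-0.56 without normalization). For N18 minus AtT20 they did relative to the seminal proteins for P2rx2 (0.19), P2rx6 (0.30), P2ry6 (0.44) and Entpd1 (0.29), and for P2rx7 without normalization (-0.17) and from target NM_001038887 alone (-0.88).

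Plates that share a replicate number deviated together in 3 of 12 pairs (r over 0.1, range -0.11 to 0.32). Plates with different numbers ranged from -0.49 to 0.36. Whether the numbers pair the plates cannot be told from these values, because pairs of different numbers spread as widely. With the replicate block the features past the test between BV2 and N18 were 10108, and the block changed no call of a member.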
